A study of Mus musculus with 12 samples.

Results

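The genes described here are 9 genes of glycogen metabolism in the tibialis anterior of mice, a muscle of the shin built mainly of fast fibres. They were taken by name from the 26264 genes in the count files: Ppp1r3c, Ppp1r3a, Gys1, Gbe1, Pygm, Phka1, Phkg1, Epm2a and Nhlrc1. All 9 had a row in every file and passed the filter on low counts, which left 13499 genes for testing. RNA was sequenced from 12 libraries: 4 of uninjured muscle, 4 of muscle injected with 50 µl of phosphate-buffered saline (PBS, the vehicle) and 4 of muscle injected with 50 µl of a matrix gel at 6 mg per ml. The gel is a hydrogel derived from the extracellular matrix of a tissue, and the series title sets it in recovery from acute and from chronic disuse injury of muscle. Per the labels' protocol the gel went into the left leg and PBS into the right, so that the side goes with the treatment, and the deposited names give uninjured muscle other animal numbers. The sources used here give no strain, sex, age, kind of injury or time of collection.

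Glycogen is the branched glucose store of muscle fibres. Glycogenin starts a particle, glycogen synthase (Gys1) lengthens its chains and the branching enzyme (Gbe1) adds branch points. Glycogen phosphorylase (Pygm) releases glucose 1-phosphate during contraction and is switched on by phosphorylase kinase, whose muscle alpha and gamma subunits are encoded by Phka1 and Phkg1. Ppp1r3c (protein targeting to glycogen) and Ppp1r3a (the muscle subunit GM) bring protein phosphatase 1 to glycogen, which activates the synthase and inactivates the phosphorylase. Epm2a encodes laforin, a phosphatase that removes phosphate from glycogen, and Nhlrc1 encodes malin, a ubiquitin ligase that works with laforin; loss of either causes Lafora disease, in which poorly branched glycogen collects in cells.

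Library totals ran from 15626086 to 22182483 counts. In CPM (reads of a gene per 1000000 reads of the scaled library total), the 13 genes of a fast-fibre list (among them Acta1, Ckm, Myh4 and Atp2a1) summed to 286100 to 318900 in uninjured, 249600 to 282500 in PBS and 175100 to 255300 in gel libraries, with gel library 3 the highest of the gel group. The 12 genes of a macrophage list summed to 39.7 to 79.8 in uninjured and 28.6 to 60.2 in PBS libraries, to 99.8 in gel library 3 and to 1010 to 1832 in the other gel libraries. All 12 of these macrophage genes passed the test as higher in gel than in PBS muscle, with a median log2 fold change of 4.47, and 4 of the 13 fast-fibre genes as lower, with 1 higher. Regenerating-fibre genes summed to 55.6 to 69.8, 60.4 to 105.6 and 208 to 797, slow-fibre genes to 85.2 to 285, 97.0 to 166 and 115 to 202, fibroblast genes to 467 to 747, 402 to 1030 and 475 to 3007, and endothelial genes to 252 to 323, 219 to 425 and 146 to 433 in the uninjured, PBS and gel groups. Neutrophil genes summed to 1.14 to 2.28, 1.03 to 1.97 and 0.855 to 23.5 and adipocyte genes to 0.253 to 1.08, 0.229 to 2.01 and 0.794 to 1.71. The neutrophil sum in gel muscle was mostly Csf3r, at 17.8, 21.8, 0.855 and 21.3 CPM in gel libraries 1 to 4. Csf3r was the only gene of that list tested: S100a8 reached 1.14 CPM and S100a9 0.568 CPM, both in gel library 2, and Ly6g was at 0 in every library. The 4 erythroid genes had 0 counts in every library, for a reason that was not tested, so they give no measure of blood. Gel library 3 also stood near the PBS libraries on the first principal component, at -5.39 against -46.5 to -17.2 for PBS and 67.4 to 91.4 for the other gel libraries, so gel results are given with and without it. In bulk muscle, fewer fibres and less RNA of a gene per fibre cannot be told apart, and the part that other cells have in the changes below was not tested.

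**Figure D1:**
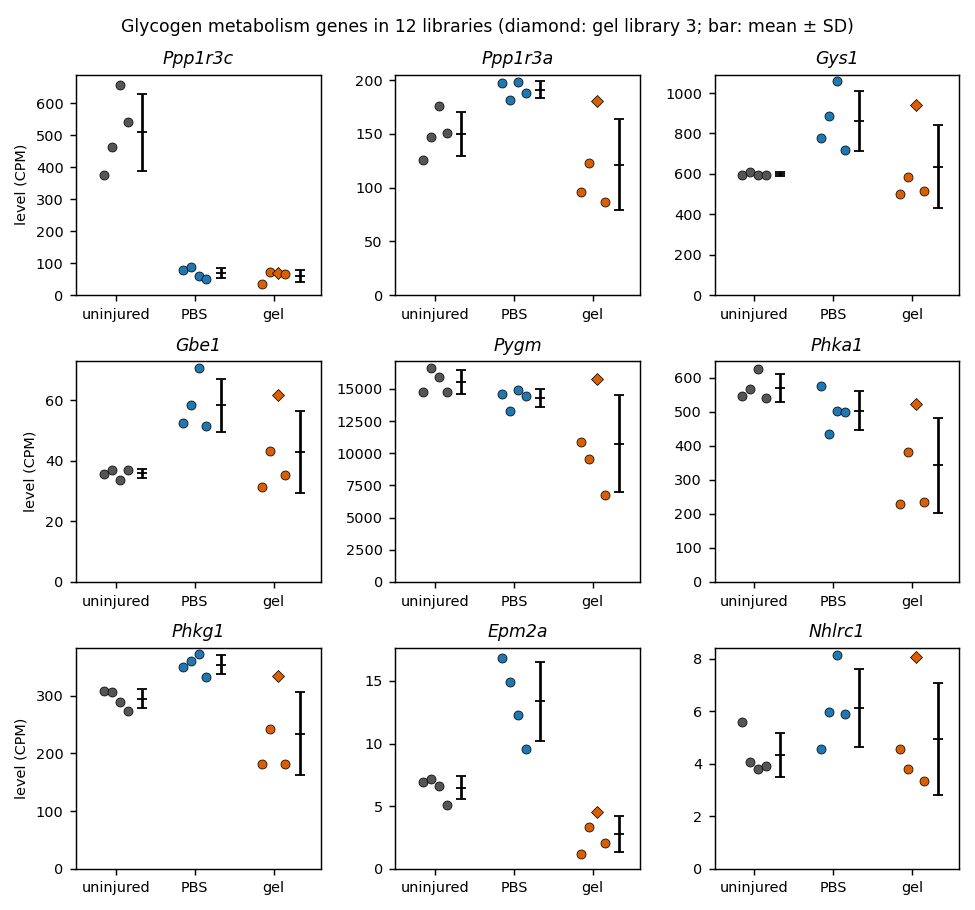
Level of each of the 9 genes (vertical axis, CPM, starting at 0) in the 12 libraries by group, with a point for each library, the gel library 3 as a diamond, and the mean and SD of 4 libraries as a bar at the right of each group. Ppp1r3c is low in all PBS and gel libraries, Epm2a is highest in PBS and lowest in gel, and gel library 3 is the highest gel library for 8 of the 9 genes.

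Levels can be compared between genes only per length, here as CPM per kilobase of exon in GENCODE M21, an annotation of another build than the one the reads were aligned to. In uninjured muscle Pygm stood far above the rest, at 5410 ± 325 CPM per kilobase (SD, n = 4). Ppp1r3c was at 187 ± 44.2 and Gys1 at 163 ± 2.37, and these neighbours did not differ beyond their spread, since Ppp1r3c ranged from 137 to 241 and Gys1 from 161 to 166. Phkg1 followed at 124 ± 6.98, Phka1 at 92.6 ± 6.47, Ppp1r3a at 21.5 ± 2.98 and Gbe1 at 8.40 ± 0.363, with no overlap between these neighbours. The Lafora disease genes were lowest, Epm2a at 1.97 ± 0.282 and Nhlrc1 at 1.89 ± 0.361, within each other's spread. In PBS muscle Ppp1r3c dropped in this order to 25.3 ± 6.06, next to Ppp1r3a at 27.5 ± 1.15, whose range of 26.1 to 28.4 lay inside that of Ppp1r3c, 18.7 to 31.7. Epm2a, at 4.07 ± 0.965, and Nhlrc1, at 2.67 ± 0.647, overlapped there too, and in gel muscle Epm2a (0.364 to 1.37) lay below Nhlrc1 (1.46 to 3.51) in all libraries.

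The first comparison set PBS-injected against uninjured muscle. It holds injury, injection, the gel in the other leg, the side of the leg and the set of animals together. By the deposited names all uninjured libraries are of left legs and all PBS libraries of right legs. Of the 9 genes, Ppp1r3c fell, Epm2a and Gbe1 rose and the other 6 did not pass the test. A gene passed with an adjusted p under 0.05 in edgeR's quasi-likelihood test, adjusted over all 13499 genes; 6.17% of all genes passed in this comparison, 2.79% as higher and 3.39% as lower. For 6 of the 9 there was no overlap between the groups, with 5 higher in PBS muscle and 1 lower, where 20.6% of all genes had none (10.4% higher, 10.2% lower). With the 2 groups fitted alone, Ppp1r3a, Gys1 and Phkg1 passed as higher too, where 9.33% of all genes were higher and 8.97% lower. The median log2 fold change of the 9 was 0.35 and that of all genes was 0.00084.

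Ppp1r3c, the glycogen-targeting subunit of the phosphatase, showed the largest difference of the set. It was at 374, 462, 658 and 540 CPM in uninjured libraries 1 to 4 and at 79.3, 86.3, 59.4 and 51.1 CPM in PBS libraries 1 to 4. Every PBS library lay below every uninjured library, and the fitted PBS level was 13.6% of the uninjured one. The log2 fold change was -2.88 ± 0.27 (SE; edgeR adjusted p = 6.58e-05), and the adjusted p was at most 0.000737 under the 18 alternatives run. Ppp1r3a, its muscle-specific relative, went the other way in value, from 126, 147, 176 and 151 CPM to 198, 182, 198 and 188 CPM. These groups did not overlap either, yet the log2 fold change of 0.35 ± 0.19 did not pass (edgeR adjusted p = 0.288; 0.0148 with the 2 groups alone).

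The promoter of Ppp1r3c is shown because this gene changed most, beside that of Epm2a, the only one of the 9 to pass the test in every comparison, and those of Gys1 and Gbe1, whose levels ran together over the 12 libraries. The sequences are RefSeq's for build GRCm38.p6, 250 bases before to 50 bases after the gene's start, on the gene's strand; all 9 genes matched the table by symbol. Capitals mark an E-box (CACGTG), the GC box (letters CCGCCC) and the box named CCAAT, each on either strand. The windows are chr19:36736555-36736854 (minus strand) for Ppp1r3c, chr10:11343195-11343494 (plus) for Epm2a, chr7:45434589-45434888 (plus) for Gys1 and chr16:70313699-70313998 (plus) for Gbe1.
Ppp1r3c: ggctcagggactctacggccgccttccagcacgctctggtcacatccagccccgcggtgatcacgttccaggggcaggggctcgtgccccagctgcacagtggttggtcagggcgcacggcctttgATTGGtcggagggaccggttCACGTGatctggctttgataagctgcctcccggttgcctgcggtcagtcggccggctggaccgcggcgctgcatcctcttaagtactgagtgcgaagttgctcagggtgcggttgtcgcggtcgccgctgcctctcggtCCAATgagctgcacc
Epm2a: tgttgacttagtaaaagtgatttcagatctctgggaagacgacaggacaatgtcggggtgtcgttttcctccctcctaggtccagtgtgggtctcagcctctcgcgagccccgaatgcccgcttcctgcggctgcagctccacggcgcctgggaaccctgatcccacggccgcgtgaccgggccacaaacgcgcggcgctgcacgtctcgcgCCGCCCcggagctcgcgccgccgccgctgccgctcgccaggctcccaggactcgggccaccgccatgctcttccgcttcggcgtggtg
Gys1: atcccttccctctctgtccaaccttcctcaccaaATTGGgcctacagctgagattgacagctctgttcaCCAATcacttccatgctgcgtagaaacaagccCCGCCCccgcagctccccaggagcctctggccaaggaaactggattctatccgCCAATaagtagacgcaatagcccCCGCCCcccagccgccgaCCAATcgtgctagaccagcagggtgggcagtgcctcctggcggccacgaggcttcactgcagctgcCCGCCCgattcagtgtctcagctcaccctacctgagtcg
Gbe1: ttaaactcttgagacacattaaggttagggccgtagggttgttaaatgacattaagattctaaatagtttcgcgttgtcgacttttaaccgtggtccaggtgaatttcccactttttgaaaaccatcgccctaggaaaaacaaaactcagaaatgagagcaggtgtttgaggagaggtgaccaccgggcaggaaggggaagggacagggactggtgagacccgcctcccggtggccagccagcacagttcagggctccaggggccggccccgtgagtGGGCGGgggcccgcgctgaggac

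Of the 9 promoters only that of Ppp1r3c held CACGTG, an E-box, once; 7.17% of 32544 distinct promoter windows of the same length hold it. CCGCCC, a GC box, was in 5 of the 9 windows, 3 times each in Gys1 and Phka1 and once each in Epm2a, Nhlrc1 and Gbe1, against 35.9% of all windows. CCAAT was in 4 of 9, 4 times in Gys1, 3 times in Phkg1, 2 times in Ppp1r3c and once in Ppp1r3a, against 37.4%. Gys1 and Gbe1 therefore shared the GC box, and Gbe1 had no CCAAT box. The TATA box, TATAAA, was in Ppp1r3a alone (13.6% of all windows) and TGACGT, the core of a cyclic AMP response element, in Nhlrc1 alone (7.55%). Both strands were searched and matches of different motifs may overlap. A match describes these letters only.

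Epm2a rose in PBS muscle. It was at 6.94, 7.20, 6.63 and 5.13 CPM in the uninjured libraries and at 16.8, 14.9, 12.3 and 9.54 CPM in the PBS libraries, from 81 to 122 and 159 to 341 reads. All PBS values lay above all uninjured values, with a log2 fold change of 1.05 ± 0.30 (edgeR adjusted p = 0.0497). The call is at the edge of the threshold: it was lost without any of the 4 uninjured libraries or without PBS library 1, 2 or 3 (adjusted p between 0.0851 and 0.155), without gel library 2 (0.0621) and with no filter on low counts (0.0508), while the fold change stayed between 0.92 and 1.19. Nhlrc1, whose product is the partner of laforin, was at 5.57, 4.08, 3.79 and 3.93 CPM in uninjured and 4.54, 5.98, 8.13 and 5.88 CPM in PBS libraries, and the groups overlapped. Its log2 fold change of 0.49 ± 0.28 did not pass (edgeR adjusted p = 0.317).

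The synthase and branching enzyme genes, Gys1 and Gbe1, were higher in every PBS library than in every uninjured library. Gbe1 went from 35.6, 37.1, 33.8 and 37.0 CPM to 52.5, 58.6, 70.8 and 51.6 CPM and rose by 0.70 ± 0.18 on the log2 scale (edgeR adjusted p = 0.0276). Its call was lost without any of the uninjured libraries or without PBS library 1, 2 or 3, with adjusted p between 0.0529 and 0.0974. Gys1 was nearly constant in uninjured muscle, at 596, 611, 594 and 593 CPM, and stood at 780, 886, 1060 and 719 CPM in PBS muscle. Its groups did not overlap, and its log2 fold change of 0.52 ± 0.19 did not pass (edgeR adjusted p = 0.105), though it passed with DESeq2 (0.0485), without gel library 3 (0.00707) and with the 2 groups alone (0.00177).

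The genes of breakdown differed little between PBS and uninjured muscle. Pygm, the most abundant of the set, was at 14760, 16650, 15960 and 14770 CPM in uninjured and 14610, 13280, 14910 and 14420 CPM in PBS libraries, with a log2 fold change of -0.12 ± 0.19 (edgeR adjusted p = 0.775). Phka1 was at 545, 568, 626 and 540 CPM against 577, 435, 502 and 498 CPM, and at -0.18 ± 0.22 (adjusted p = 0.685). Both pairs of groups overlapped. Phkg1, the catalytic subunit gene, was at 309, 307, 288 and 274 CPM against 350, 360, 372 and 333 CPM; here the groups did not overlap, and the log2 fold change was 0.26 ± 0.17 (adjusted p = 0.382; 0.0310 with the 2 groups alone).

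The log2 ratio of Gys1 to Pygm within a library, which no difference in library scaling can move, was -4.63, -4.77, -4.75 and -4.64 in uninjured and -4.23, -3.91, -3.81 and -4.33 in PBS muscle. All PBS values were above all uninjured values, and the means were -4.70 ± 0.07 and -4.07 ± 0.25 (SD, n = 4). In gel muscle the ratio was -4.44, -4.03, -4.07 and -3.71, within or above the PBS range in 3 libraries, and again above every uninjured value. These ratios are given as a description, with no test.

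**Figure D2:**
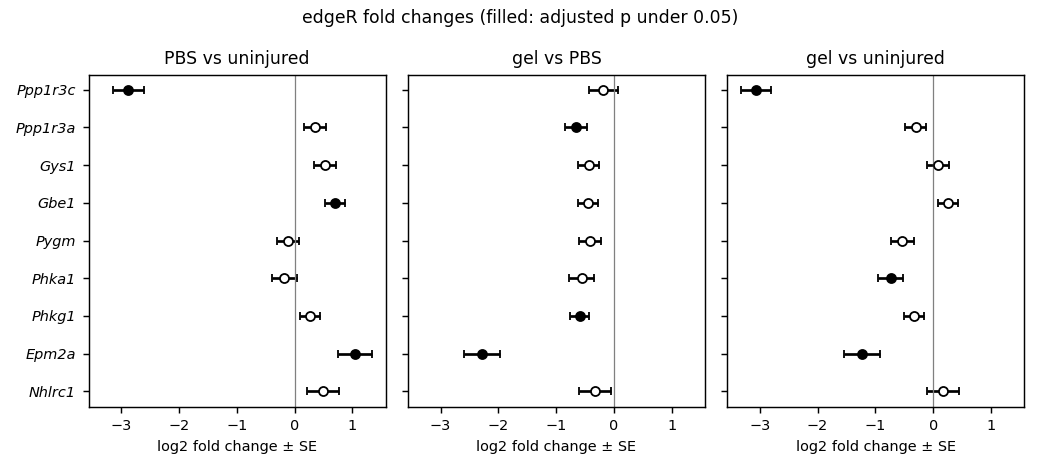
Log2 fold change with its SE (horizontal axis) of each gene in the 3 comparisons from edgeR, with filled points for an adjusted p under 0.05. Ppp1r3c is at -2.88 and -3.07 against uninjured muscle, and Epm2a is at 1.05, -2.28 and -1.23.

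Gel-injected muscle was compared with PBS-injected muscle, which sets the gel against its vehicle in the other leg. Epm2a, Ppp1r3a and Phkg1 fell and none of the 9 genes rose; all 9 had a negative log2 fold change, with a median of -0.44 where that of all genes was 0.04. In this comparison 29.8% of all genes passed, 16.6% as higher and 13.2% as lower; the 3 that fell make 33.3% of the 9. For 2 of the 9, Epm2a and Ppp1r3a, the groups had no overlap, where 20.1% of all genes had none (10.4% higher, 9.74% lower). This comparison and the one above share the PBS libraries, so opposite signs in the 2 are not independent.

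Epm2a was at 1.20, 3.36, 4.52 and 2.04 CPM in gel libraries 1 to 4, from 21, 71, 74 and 56 reads. Each lay below every PBS library, and the highest, gel library 3, also lay below the lowest uninjured library. The fitted gel level was 20.6% of the PBS level, with a log2 fold change of -2.28 ± 0.31 (edgeR adjusted p = 0.00117) and an adjusted p of at most 0.0113 under the 19 alternatives. The difference between the legs of an animal was -3.70, -2.11, -1.42 and -2.17 in log2 CPM. Nhlrc1 was at 4.56, 3.79, 8.06 and 3.35 CPM, which overlaps the PBS values, and its log2 fold change was -0.32 ± 0.28 (edgeR adjusted p = 0.401).

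The log2 ratio of Epm2a to Nhlrc1, which is not corrected for length and so is compared between libraries only, was -1.93, -0.17, -0.84 and -0.72 in gel libraries 1 to 4. It was 1.89, 1.32, 0.59 and 0.70 in PBS and 0.32, 0.82, 0.81 and 0.39 in uninjured libraries. Every gel value, that of gel library 3 included, lay below every PBS and uninjured value, with means of -0.91 ± 0.74, 1.12 ± 0.60 and 0.58 ± 0.27 (SD, n = 4).

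**Figure D3:**
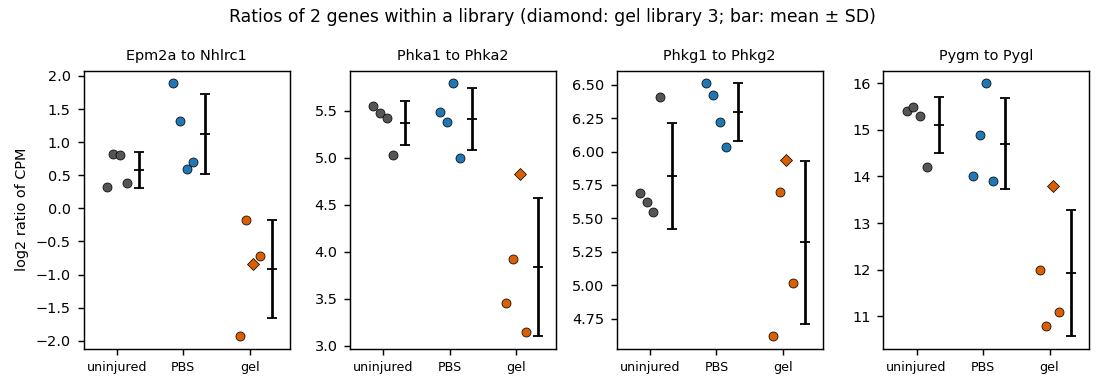
Log2 ratio of the CPM of 2 genes within each library (vertical axis) by group, with a point for each library, gel library 3 as a diamond and a bar for the mean and SD of 4 libraries. The Epm2a to Nhlrc1, Phka1 to Phka2 and Pygm to Pygl ratios are lower in every gel library than in every other library.

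Ppp1r3a was at 95.6, 123, 181 and 86.3 CPM in the gel libraries, with gel library 3 just under the lowest PBS value of 182. It fell by 0.66 ± 0.19 on the log2 scale (edgeR adjusted p = 0.0173), a call lost without gel library 4 (0.0547). Ppp1r3c, already low in PBS muscle, was at 32.9, 73.2, 69.9 and 66.5 CPM, and the groups overlapped. Its log2 fold change was -0.19 ± 0.25 (edgeR adjusted p = 0.605), and it was 0.015 without gel library 1, the lowest of the 4.

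Phkg1 was at 181, 242, 334 and 181 CPM and fell by 0.59 ± 0.17 (edgeR adjusted p = 0.0163), although gel library 3 lay just above the lowest PBS library. Without gel library 4 (0.0544) or with the 2 groups alone (0.0556) the call was lost. Phka1 was at 228, 383, 522 and 235 CPM and at -0.56 ± 0.22 (adjusted p = 0.0646), and passed with DESeq2 (0.0300) and limma voom (0.0433). Pygm was at 10890, 9564, 15780 and 6759 CPM and at -0.41 ± 0.19 (adjusted p = 0.12); gel library 3 was higher than every PBS library and the other 3 were lower.

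Gys1 was at 502, 585, 940 and 517 CPM in gel muscle, with gel library 3 inside the PBS range and the other 3 below it. Its log2 fold change of -0.44 ± 0.19 did not pass (edgeR adjusted p = 0.0868; 0.0493 with DESeq2). Gbe1 showed the same order, at 31.2, 43.3, 61.9 and 35.4 CPM, with a log2 fold change of -0.44 ± 0.18 (adjusted p = 0.0675). Fitted with pairing by animal it passed (edgeR adjusted p = 0.0356), as it did with DESeq2 (0.0499). With DESeq2 6 of the 9 genes were lower, where 15.8% of all genes were, and with pairing by animal 4 were, where 10.0% of all genes were. Gys1 was lower in the gel leg in 4 of 4 animals, by 0.64, 0.60, 0.17 and 0.48 in log2 CPM as absolute differences, and so were Gbe1, Epm2a, Ppp1r3a and Phkg1; Pygm, Phka1 and Nhlrc1 were lower in 3 animals and Ppp1r3c in 2.

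Gel library 3 was the highest gel library for 8 of the 9 genes, all but Ppp1r3c, and lay within the PBS range for 6. Without it 8 of the 9 genes fell in gel relative to PBS muscle, where 20.0% of all genes then passed as lower. Leaving out the highest gel library lowers the gel mean by construction, so the values that follow are a description. Log2 fold changes were then -2.61 ± 0.29 for Epm2a, -0.93 ± 0.13 for Ppp1r3a, -0.85 ± 0.16 for Phka1, -0.83 ± 0.12 for Phkg1, -0.70 ± 0.13 for Gys1, -0.68 ± 0.13 for Gbe1, -0.67 ± 0.14 for Pygm and -0.67 ± 0.24 for Nhlrc1, with edgeR adjusted p between 1.73e-06 and 0.0311. Ppp1r3c, at -0.27 ± 0.29, did not pass (edgeR adjusted p = 0.495). The macrophage genes summed to 1010 to 1832 CPM and the fast-fibre genes to 175100 to 218200 CPM in the 3 gel libraries that this leaves.

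**Figure D4:**
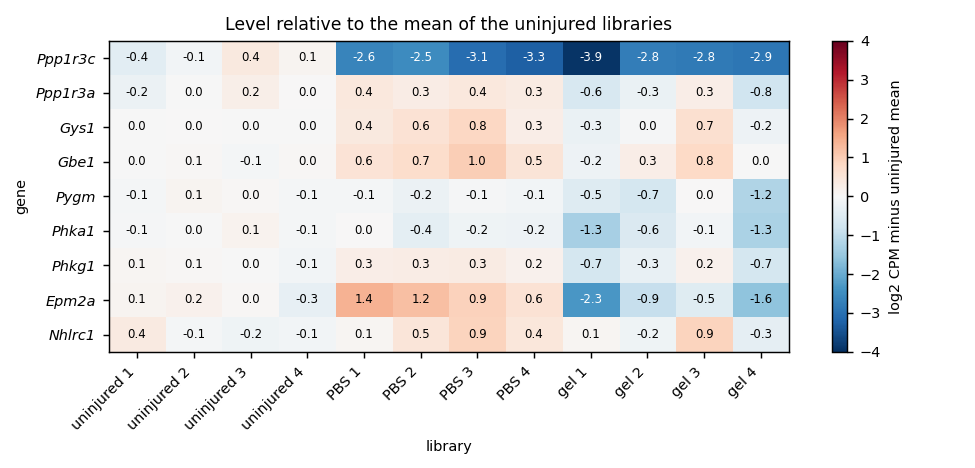
Log2 CPM of each gene (rows) in each library (columns) minus the mean of the 4 uninjured libraries, with red above and blue below that mean. Ppp1r3c is below it by 2.53 or more in every PBS and gel library, and gel library 3 resembles the PBS columns for Gys1, Gbe1, Phkg1, Phka1 and Nhlrc1, for each of which it lies within the PBS range in CPM.

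Because fast-fibre genes took a smaller share of the gel libraries, the libraries were also scaled to the summed counts of the 13 fast-fibre genes. This scaling moved the median log2 fold change of all genes by 0.15 in PBS against uninjured, 0.36 in gel against PBS and 0.51 in gel against uninjured muscle, and the share of passing genes that were higher from 45.1% to 83.8%, from 55.6% to 90.2% and from 56.6% to 95.4%. In PBS against uninjured muscle Epm2a, Gbe1, Gys1, Ppp1r3a and Phkg1 passed as higher and Ppp1r3c as lower on this scale, where 7.41% of all genes were higher and 1.44% lower. In gel against PBS muscle Epm2a alone of the 9 still passed, where 3.70% of all genes were lower, at -1.94 ± 0.29 (edgeR adjusted p = 0.00111), or -2.35 relative to the median of all genes. Ppp1r3a was at -0.34 and Phkg1 at -0.27, and neither passed (adjusted p = 0.0747 and 0.0992); relative to the median of all genes they were at -0.75 and -0.67. Gys1, Gbe1 and Pygm were at -0.11 each on this scale, and at -0.52 each relative to the median of all genes. In gel against uninjured muscle Gbe1, Nhlrc1 and Gys1 passed as higher at 0.74, 0.63 and 0.56, where 50.3% of all genes did, and Ppp1r3c and Epm2a as lower at -2.55 and -0.75, where 2.43% did; relative to the median of all genes these 5 were at 0.20, 0.09, 0.02, -3.09 and -1.29.

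Gel-injected muscle was also compared with uninjured muscle. This comparison holds injury, injection, the gel, PBS in the other leg and the set of animals together. Ppp1r3c, Epm2a and Phka1 fell, none of the 9 rose, and 25.6% of all genes passed, 14.5% as higher and 11.1% as lower. Ppp1r3c went from 508 ± 120 to 60.6 ± 18.7 CPM (SD, n = 4), which is 11.9% of the uninjured level in the fit, with a log2 fold change of -3.07 ± 0.27 (edgeR adjusted p = 2.61e-05). Epm2a went from 6.47 ± 0.93 to 2.78 ± 1.46 CPM and fell by 1.23 ± 0.31 (adjusted p = 0.0105), with no overlap. Phka1 went from 570 ± 39.8 to 342 ± 140 CPM and fell by 0.74 ± 0.22 (adjusted p = 0.0222), also with no overlap; 23.0% of all genes had no overlap here, 11.3% higher and 11.7% lower.

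The remaining 6 genes did not pass against uninjured muscle, and each had overlapping groups. Pygm was at -0.53 ± 0.19 on the log2 scale (edgeR adjusted p = 0.0563), Phkg1 at -0.33 ± 0.17 (0.161) and Ppp1r3a at -0.31 ± 0.19 (0.247). Gys1 was at 0.09 ± 0.19 (0.766), Gbe1 at 0.26 ± 0.18 (0.299) and Nhlrc1 at 0.17 ± 0.28 (0.683). Pygm passed with DESeq2 (0.0216) and limma voom (0.0385). The Phka1 call was lost without gel library 1 (0.0513) or 4 (0.0633), without uninjured library 3 (0.0611) and with scaling to fast-fibre genes (0.194). Without gel library 3, Pygm, Ppp1r3a and Phkg1 passed as lower as well, at -0.79, -0.57 and -0.56, where 17.9% of all genes were lower.

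The genes differed in how they ran together over the 12 libraries, which share their depth and scaling; the correlations are a description. Gys1 and Gbe1 were the closest pair, with a Pearson correlation of log2 CPM of 0.962, and their correlation was 0.963 when each group's mean was removed. Over all 12313 other genes with a mean of at least 1 CPM, Gbe1 was the gene most like Gys1, and Gys1 the gene most like Gbe1. Ppp1r3a and Phkg1 (0.930) and Epm2a and Phkg1 (0.927) came next. Epm2a and Nhlrc1 were at 0.420. Over the 12 libraries Ppp1r3c stood apart, with correlations between -0.449 (Gbe1) and 0.605 (Phka1). With each group's mean removed they lay between -0.226 (Nhlrc1) and 0.696 (Epm2a), and that with Gbe1 was 0.397.

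**Figure D5:**
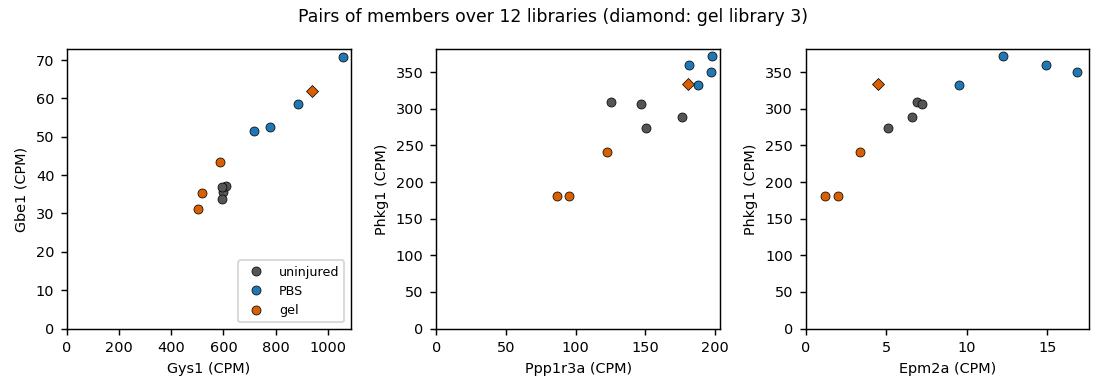
CPM of 1 gene against another over the 12 libraries for Gys1 and Gbe1, Ppp1r3a and Phkg1, and Epm2a and Phkg1, with points coloured by group, gel library 3 as a diamond and both axes starting at 0. Gys1 and Gbe1 lie along a line from gel and uninjured to PBS libraries, with gel library 3 among the PBS points.

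The other members were each most like a gene that is not on the pathway list. Epm2a was closest to Eif4g1 (r = 0.985), a translation initiation factor gene, Jph2 (0.984), a junctophilin gene, Amotl1 (0.984), Ap1ar (0.982) and Prkab2 (0.981), a subunit gene of the AMP-activated kinase with a glycogen-binding domain. Pygm was closest to Atp2a1 (0.973), the calcium pump gene of fast fibres, which is one of the fast-fibre markers used here, and then to Plekhb1 (0.969) and Wnt4 (0.963). Phkg1 was closest to Rragd (0.985), Ston2 (0.982) and Klhl21 (0.982), and Phka1 to Me1 (0.962), Zfand5 (0.960) and Nek7 (0.959). Ppp1r3a was closest to Mtmr6 (0.975), Ppp1r3c to Ankrd9 (0.972) and Nhlrc1 to Mrpl34 (0.921). Ankrd9 was, like Ppp1r3c, low in both injected groups, at 200 CPM in uninjured, 82.5 in PBS and 85.8 in gel muscle on average.

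The muscle forms of phosphorylase and phosphorylase kinase have relatives expressed in other tissues, of which Pygl, Phka2 and Pygb passed as higher in gel than in PBS muscle. The difference between a muscle form and its relative was not tested. Pygl, the liver phosphorylase gene, had 4 to 18 reads in each uninjured and PBS library and 46, 113, 18 and 86 reads in gel libraries 1 to 4. It rose by 2.27 ± 0.52 on the log2 scale over PBS (edgeR adjusted p = 0.00547), to 3.05 ± 1.76 CPM (SD, n = 4). Phka2, the liver alpha subunit gene, was at 12.9, 10.4, 9.10 and 15.7 CPM in PBS and 20.8, 25.4, 18.5 and 26.7 CPM in gel libraries and rose by 0.93 ± 0.18 (adjusted p = 0.00285). Neither call was lost under any of the alternatives run. Pygb, the brain form, rose by 0.89 ± 0.32 (adjusted p = 0.0478), a call lost under 13 of 19 alternatives, among them pairing by animal (0.0615) and the omission of PBS library 1, 3 or 4, gel library 1, 2 or 4 or uninjured library 1, 2 or 3 (0.0554 to 0.139). Phkg2, the other gamma subunit gene, was at 0.34 ± 0.23 (adjusted p = 0.282). Gys2, the liver synthase gene, had 0 to 16 reads in a library and was not tested.

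Set within a library, the log2 ratio of Phka1 to Phka2 was 5.03 to 5.55 in uninjured, 4.99 to 5.79 in PBS and 3.45, 3.92, 4.82 and 3.14 in gel libraries 1 to 4. Every gel value, that of gel library 3 included, lay below every other value. The log2 ratio of Pygm to Pygl was 14.2 to 15.5, 13.9 to 16.0 and 12, 10.8, 13.8 and 11.1, again without overlap, although gel library 3 was only just below the lowest PBS library. That of Phkg1 to Phkg2 did not overlap between gel (4.62, 5.70, 5.94 and 5.02) and PBS (6.03 to 6.51) but overlapped with uninjured libraries (5.55 to 6.41). The ratio of Pygm to Pygb, at 10.7, 10.6, 12.6 and 9.96 in gel libraries against 11.6 to 12.8 in PBS and 11.4 to 12.4 in uninjured libraries, overlapped in every comparison. Macrophage genes were high in the same gel libraries in which the Phka1 to Phka2 and Pygm to Pygl ratios were lowest, and the part of macrophages in these ratios was not tested.

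There were 38 other tested genes of the glycogen pathway, from a list of 42 symbols. The symbols were chosen by function with earlier results of these data known, so shares of the list are a description. In PBS against uninjured muscle 1 rose, and in gel against PBS 5 rose and 13 fell. In gel against uninjured muscle 7 rose and 8 fell. The 13 that fell against PBS make 34.2% of those tested, where 13.2% of all genes were lower, and the 5 that rose 13.2%, where 16.6% were higher. In gel against uninjured muscle 18.4% of the list were higher and 21.1% lower, where 14.5% and 11.1% of all genes were. The 1 that rose in PBS against uninjured muscle makes 2.63%, where 2.79% of all genes were higher. The median log2 fold change of the list against PBS was -0.22. With scaling to fast-fibre genes 11 of these 38 genes were higher and 7 lower in gel against PBS (4617 and 499 of all genes). Of all genes 3.70% were then lower, and 90.2% of those that passed were higher. In gel against uninjured muscle 15 of the 38 were higher and 1 lower (6788 and 328 of all genes, or 50.3% and 2.43%). A turn towards higher calls was thus seen over all genes too. In gel against PBS 7 of the 18 passing list genes were still lower on that scale, where 499 of 5116 passing genes were. The directions of the pathway genes given below are those of the TMM scaling. The list also holds hexokinases, glucose transporters and the AMP-activated kinase, described in the closing observations.

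The other genes that build, trim or bind the particle that passed against PBS were mostly lower in gel muscle. Gyg, the glycogenin gene, went from 401, 426, 490 and 383 CPM in PBS to 183, 250, 361 and 223 CPM in gel libraries, without overlap, and fell by 0.74 ± 0.17 (edgeR adjusted p = 0.00574). Gaa, the lysosomal glucosidase gene that is defective in Pompe disease, fell by 0.69 ± 0.16 (adjusted p = 0.00617). Pgm1, which interconverts glucose phosphates, fell by 0.51 ± 0.16 (0.0226) and its relative Pgm2l1 by 1.025 ± 0.19 (0.00274), while Pgm2 rose by 0.955 ± 0.26 (0.0140). Stbd1, whose product links glycogen to membranes, was higher in gel than in uninjured muscle by 0.91 ± 0.25 (adjusted p = 0.0190), from 23.8, 28.4, 19.7 and 22.5 CPM to 19.9, 53.5, 53.5 and 50.2 CPM. In PBS libraries Stbd1 was at 34.4, 32.5, 36.2 and 44.9 CPM, above every uninjured library, though that rise of 0.65 ± 0.25 did not pass (edgeR adjusted p = 0.147). Gel against PBS was at 0.26 ± 0.25 (0.457), so Stbd1 passed only in gel against uninjured muscle. Its call was lost without gel library 2 (0.0652) or 4 (0.0681) or uninjured library 3 (0.0614) or 4 (0.0520), and with voom (0.0570).
The Pgm1 call was lost on omission of PBS library 3 (0.0522) or gel library 1 (0.0621), 2 (0.0569) or 4 (0.0685), with pairing by animal (0.0534), the 2 groups alone (0.0695) and scaling to fast-fibre genes (0.238), and the Pgm2 call without gel library 4 (0.0566).

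Among the regulators of the synthase and phosphorylase, Ppp1cb, Phkb, Gsk3a and Gsk3b fell in gel against PBS muscle. Ppp1cb, a catalytic subunit gene of the phosphatase that Ppp1r3c and Ppp1r3a bring to glycogen, went from 152, 169, 205 and 149 CPM in PBS to 50.1, 80.2, 125 and 63.6 CPM in gel libraries and fell by 1.08 ± 0.22 (edgeR adjusted p = 0.00349), without overlap. The other catalytic subunits, Ppp1ca at -0.35 ± 0.13 (0.0617) and Ppp1cc at -0.26 ± 0.20 (0.351), did not pass. Without gel library 3 Ppp1ca passed too, at -0.51 ± 0.11 (edgeR adjusted p = 0.000859), and Ppp1cc did not (0.382). Phkb, the regulatory beta subunit gene of phosphorylase kinase, fell by 0.87 ± 0.22 (adjusted p = 0.0109). Gsk3a, a kinase gene whose product inhibits the synthase, fell by 0.51 ± 0.14 (0.0145), a call lost without gel library 4 (0.0507) and with scaling to fast-fibre genes (0.289). Gsk3b fell by 0.34 ± 0.11 (0.0358), and that call was lost with pairing by animal (0.104), with the 2 groups alone (0.0880), on omission of PBS library 3 (0.101) or 4 (0.0501) or gel library 1 (0.0502) or 4 (0.106), and with scaling to fast-fibre genes (0.939).

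Calmodulin is the fourth subunit of phosphorylase kinase and is encoded by more than 1 gene with the same protein product. Calm2 rose in PBS muscle, from 56.2, 41.7, 53.6 and 43.0 CPM to 82.8, 70.4, 86.8 and 76.0 CPM, by 0.70 ± 0.13 on the log2 scale (edgeR adjusted p = 0.00540), the only other pathway gene to pass in that comparison. It was at 0.06 ± 0.13 in gel against PBS (0.767). Calm3 fell in gel against PBS muscle by 0.82 ± 0.16 (0.00279), from 314 to 377 CPM down to 146 to 259 CPM. The difference between Calm2 and Calm3 was not tested.

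The sources used here name no counting program or strand setting, so reads where genes overlap on opposite strands cannot be assigned. In GENCODE M21 the exons of Gys1 share 310 bases with Ruvbl2 and those of Phkg1 share 630 bases with Sumf2, both on the opposite strand, and the other 7 genes share no exonic base. Ruvbl2 was at 27.8 ± 3.65, 29.1 ± 1.56 and 25.9 ± 2.22 CPM and Sumf2 at 12.5 ± 0.956, 10.6 ± 2.06 and 12.1 ± 1.39 CPM in uninjured, PBS and gel muscle (SD, n = 4), far below Gys1 and Phkg1, and neither passed in any comparison (edgeR adjusted p of 0.289 or higher). Exons of Phkg2 share 763 bases with Ccdc189 and those of Phka2 share 115 bases with Gm15243. Ccdc189 was at 2.55 ± 0.751, 4.20 ± 0.732 and 5.40 ± 0.913 CPM in the uninjured, PBS and gel groups (SD, n = 4), near the level of Phkg2, and was higher in gel than in uninjured muscle by 1.08 ± 0.25 on the log2 scale (edgeR adjusted p = 0.00641), so the Phkg2 values and the Phkg1 to Phkg2 ratio are uncertain.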

How the data were processed

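RNA was sequenced from 12 mouse tibialis anterior libraries, 4 a group, grouped by the titles. The deposited values are raw counts of reads per gene symbol, which the authors made with STAR on build mm39 (tools per the submitters' processing notes, where edgeR appears too); counter, strand setting and annotation: not given in the sources used here. All value columns belong to a library (0 unmatched).

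The 9 genes and the pathway and marker lists were chosen with earlier results of these data known. The analysis used edgeR 4.0.16 under R 4.3.3: filterByExpr, trimmed-mean (TMM) scaling, and a robust quasi-likelihood fit of all 12 libraries with 1 coefficient a group and 9 residual degrees of freedom. Adjustment was by Benjamini-Hochberg across the 13499 tested genes (threshold 0.05). Log2 fold changes have an SE equal to their size over the square root of F. SDs are over 4 libraries, and the prior count for log2 CPM was 2. The fit was tested on simulated data. Text names the 9 genes, the pathway genes past the threshold, the isoforms and the 5 (Epm2a) or 3 most correlated genes; 2 pathway genes are not reported here. Alternatives were DESeq2 1.42.0, limma voom 3.58.1, RLE size factors, scaling to fast-fibre genes, no filter, the 2 groups alone, each library left out in turn and, for gel against PBS, the animal as a block.

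A shared number in the gel and PBS groups marks the legs of 1 animal, per the labels' protocol and the deposited names. Over all genes, same-numbered deviations from the group means correlated at 0.143, -0.0559, 0.311 and 0.0797. Those with unlike numbers correlated at -0.267 to 0.196. Only gel library 3 was most like the PBS library of its own number, so the pairing rests on the protocol and names. No 2 replicates agreed within sampling noise: chi-square per gene was 6.61 or higher (genes of 25 or more reads over both). A p-value sets a difference between groups against the spread between these libraries. The main fit treated the gel and PBS legs of 1 animal as independent. Coordinates are those of the RefSeq table (GRCm38.p6), and reads were aligned to another build.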

Additional observations from a re-analysis of the deposited data

Results flagged for a closer look

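In 27 groups of 4 libraries (9 genes in 3 groups), 2 held a library far from the rest by Dixon's criterion, where chance marks about 1 group in 20. Nhlrc1 was at 5.57 CPM in uninjured library 1 and at 3.79 to 4.08 CPM in the other uninjured libraries. Ppp1r3c was at 32.9 CPM in gel library 1 and at 66.5 to 73.2 CPM in the other gel libraries.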

How the results depend on the processing

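Of the 9 genes, the number passing in PBS against uninjured muscle was 3, and 6 with scaling to fast-fibre genes or with the 2 groups alone; leaving out a library gave 1 to 4. In gel against PBS it was 3, and 6 with DESeq2 and 1 with scaling to fast-fibre genes, with 1 to 8 when a library was left out. In gel against uninjured it was 3, and 5 with scaling to fast-fibre genes, with 2 to 6 when a library was left out. The numbers of all genes passing were 833, 4022 and 3449: the first was 1417 with DESeq2 and 2339 with the 2 groups alone, the second 2559 with the 2 groups alone and the third 7116 with scaling to fast-fibre genes, and leaving out a library gave 378 to 1693, 2456 to 5962 and 2275 to 5341. Of the other pathway genes 1, 18 and 15 passed: the first was 3 with DESeq2 or scaling to fast-fibre genes and 7 with the 2 groups alone, and leaving out a library gave 1 to 4, 10 to 22 and 8 to 24. Signs of 2 pathway genes that had passed turned with scaling to fast-fibre genes: Gsk3b to 0.0138 in gel against PBS and Gsk3a to 0.0377 in gel against uninjured muscle, neither passing there. Of the 9 genes, signs turned where the test had not been passed: with scaling to fast-fibre genes Pygm was at 0.0333 in PBS against uninjured, Ppp1r3c at 0.19 in gel against PBS, and Ppp1r3a at 0.16 and Phkg1 at 0.15 in gel against uninjured muscle; with a library left out Ppp1r3c ranged from -0.335 to 0.015 in gel against PBS (positive without gel library 1), and in gel against uninjured Nhlrc1 ranged from -0.176 to 0.311 and Gys1 from -0.176 to 0.183 (negative without gel library 3). Apart from what these scalings and omissions do by construction, the cause was not tested. With the animal as a replicate block, 4 of the 9 genes passed in gel against PBS (the same 3 and Gbe1), and 15 of the 18 other pathway genes did; the block changed no other call of these genes. Uninjured muscle came from other animals and has no pairing. Epm2a and Nhlrc1 had 21 to 341 reads a library, which limits their precision.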

Other observations

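Genes of glucose entry, which feeds glycogen synthesis, were among the pathway list. Hk1, the widely expressed hexokinase gene, was at 17.5, 12.4, 9.16 and 13.0 CPM in PBS and 20.3, 28.4, 19.0 and 36.5 CPM in gel libraries, without overlap, and rose by 1.00 ± 0.23 on the log2 scale (edgeR adjusted p = 0.00549). Hk2, the hexokinase gene of insulin-sensitive muscle, fell by 0.68 ± 0.21 (adjusted p = 0.0231), from 193 to 274 CPM in PBS libraries to 97.9 to 216 CPM in gel libraries, and that call was lost on omission of PBS library 2 (0.0544) or 3 (0.0752) or gel library 1 (0.0597), 2 (0.0682) or 4 (0.0685), with the 2 groups alone (0.0610) and with scaling to fast-fibre genes (0.0504). The insulin-responsive transporter gene Slc2a4 was at -0.40 ± 0.18 (adjusted p = 0.1), and passed without gel library 3 at -0.61 ± 0.14 (0.00168).

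The AMP-activated kinase, which binds glycogen through its beta subunits, has muscle-rich and widely expressed subunit genes. Prkab2, the beta subunit gene prominent in muscle, was at 228, 215, 171 and 164 CPM in PBS and 47.9, 95.5, 115 and 62.0 CPM in gel libraries, without overlap, and fell by 1.28 ± 0.23 on the log2 scale (edgeR adjusted p = 0.00236). Prkaa2, the catalytic subunit gene prominent in muscle, fell by 0.72 ± 0.21 (adjusted p = 0.0202), a call lost without gel library 4 (0.0603) or PBS library 3 (0.0540), with the 2 groups alone (0.0615) and with scaling to fast-fibre genes (0.0587). Prkab1 and Prkaa1, the other forms, were at 0.11 ± 0.12 and 0.15 ± 0.14 against PBS (adjusted p = 0.523 and 0.453) and were higher in gel than in uninjured muscle by 0.44 ± 0.13 and 0.50 ± 0.14 (adjusted p = 0.0182 and 0.0192). The calls of Prkab1 and Prkaa1 were both lost without gel library 2 (0.0782 and 0.0940) and without uninjured library 4 (0.0526 and 0.05), that of Prkab1 also without gel library 4 (0.0816) or uninjured library 3 (0.0710) and with the 2 groups alone (0.0509), and that of Prkaa1 without uninjured library 2 (0.0721). Prkag3, the gamma subunit gene of fast fibres, was at 0.03 ± 0.19 against PBS (adjusted p = 0.908). Whether these subunit genes differ from each other in their response was not tested.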
